A study of Mus musculus with 6 samples.

Results

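Macrophages are phagocytes of the innate immune system that live in most tissues, where they engulf dying cells and debris and present antigen. Their survival depends on the receptor for colony stimulating factor 1, and many of them secrete C1q, the molecule that starts the classical complement pathway and that also coats dying cells. C1q is assembled from A, B and C chains, each made by its own gene. Described here are 10 genes of this kind, chosen by name as tissue macrophage genes, out of 47719 gene identifiers in the data. They are Adgre1, Csf1r and Cx3cr1 (surface receptors of the lineage), C1qa, C1qb and C1qc (the C1q chains), Mrc1 and Cd163 (scavenger receptors), and Lyz2 and Cd14 (antibacterial and endotoxin sensing proteins). All 10 passed the filter for testing, a mean of at least 1 FPKM over the 6 mice, as did 13818 genes in all. FPKM counts fragments relative to exon length and to all mapped fragments, so levels can be set side by side between genes.

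The prostates came from 6 mice of the strain B6.129S4-Trp53tm3.1Tyj/J, with 2 mice per Trp53 genotype, at an age of about 3 months. Mice 39 and 41 were wildtype (Trp53+/+), mice 37 and 40 heterozygous (Trp53R270H/+) and mice 47 and 49 homozygous (Trp53R270H/R270H), numbered as in the labels. Every mouse, wildtype included, had received 5 Gy of whole body irradiation 6 h before dissection, so there is no unirradiated control. R270H is a missense mutation in the DNA binding domain of p53, and the labels name no promoter that would restrict it to a cell type. Gene-level FPKM does not separate the mutant from the wildtype allele, so it does not check a genotype. Whole gland RNA was measured, and in such samples fewer macrophages and less RNA per macrophage cannot be told apart.

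Homozygous mouse 47 stood apart from the other 5 mice. Probasin (Pbsn), a secretory protein of the prostate lumen, was at 257 FPKM in mouse 47 and between 7329 and 11512 FPKM in the others. The summed FPKM of the 10 prostate epithelium markers was 1124 in mouse 47, 8314 in mouse 49, 12535 and 12911 in wildtype mice and 9635 and 9219 in heterozygous mice, with none of them listed at 0. Of 5 seminal vesicle genes, Svs2, Svs4 and Svs5 were listed at 0 in mouse 47, whereas Svs3a and Svs6 had their highest values there, and the list summed to between 3354 FPKM (mouse 39) and 53400 FPKM (mouse 37). The 6 skeletal muscle genes summed to 1447 and 2154 FPKM in wildtype, 4045 and 4280 in heterozygous and 5037 and 4269 in homozygous animals. The part of tissue composition in the values below was not tested. Depth, read from the spacing of the lowest values, lay between 0.785 (mouse 47) and 1.07 (mouse 49) times that of mouse 39.

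The C1q genes lie side by side on the minus strand of chromosome 4 (GRCm38), with C1qb at chr4:136880129-136886187, C1qc at chr4:136889804-136893065 and C1qa at chr4:136895917-136898803. They span 18675 bases, with 3616 bases between C1qb and C1qc and 2851 between C1qc and C1qa. The other members lie apart, with Adgre1 on chromosome 17 (57358691 to 57483527), Mrc1 on chromosome 2 (14229392 to 14332057), Cd163 on chromosome 6 (124304656 to 124330527), Lyz2 on chromosome 10 (117277331 to 117282321) and Cx3cr1 on chromosome 9 (119901616 to 120069879). RefSeq windows of 250 bases before the start site (GRCm38.p6) were at hand for 6 members, namely C1qb, C1qc, Cd163, Cx3cr1, Lyz2 and Mrc1. They were searched on both strands for AGGAAGT, whose GGAA core is the one bound by ETS family factors. To that family belongs PU.1, the master regulator of macrophages encoded by Spi1. The search was chosen with these sequences in view. The letters were present in 4 of the 6 windows and in 7.69% of 32851 windows of all genes, and each of the 4 held them once, as ACTTCCT on the strand of the gene. The longer GAGGAAGT, which contains the first motif, was present in C1qc alone among the 6 and in 2.44% of all windows. A match describes letters and is not evidence of binding. The 4 stretches are shown because these 4 members share the letters. The window of Cd163, which moved with them between mice, held 0 matches, as did that of Cx3cr1. The Cx3cr1 window (chr9:120068297-120068546) lies inside the span of the gene given above. The RefSeq starts of C1qc, Lyz2 and Mrc1 also lie inside the spans given for these genes. Matches and distances thus depend on the start site used. Each of the 4 stretches has 60 bases in the direction of transcription, with capitals marking the motif.
C1qb, chr4:136886221-136886280, minus strand, motif from 53 to 47 bases before the start: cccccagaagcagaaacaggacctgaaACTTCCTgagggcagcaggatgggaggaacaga
C1qc, chr4:136893077-136893136, minus strand, motif from 195 to 189 bases before the start: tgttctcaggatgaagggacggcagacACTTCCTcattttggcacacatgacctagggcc
Lyz2, chr10:117282340-117282399, minus strand, motif from 100 to 94 bases before the start: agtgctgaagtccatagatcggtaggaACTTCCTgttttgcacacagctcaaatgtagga
Mrc1, chr2:14229176-14229235, plus strand, motif from 211 to 205 bases before the start: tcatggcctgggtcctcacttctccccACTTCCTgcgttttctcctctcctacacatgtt

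In mean level over the 6 mice, the order was Lyz2 (68.0 FPKM), C1qa (39.4), C1qb (31.9), C1qc (29.6), Csf1r (8.43), Cd14 (8.22), Mrc1 (4.80), Cd163 (4.39), Adgre1 (2.76) and Cx3cr1 (1.94). From Lyz2 down to Csf1r, each gene was above the next in 6 of 6 mice. Cd14 was above Mrc1 in 6 of 6 mice. Csf1r and Cd14 could not be ordered, since Csf1r was the higher in 2 of 6 mice. Mrc1 exceeded Cd163 in 4 of 6 mice, Cd163 exceeded Adgre1 in 5, and Adgre1 exceeded Cx3cr1 in 5.

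C1qa encodes the A chain of C1q. Its FPKM was 34.2 and 34.3 in wildtype mice 39 and 41, 55.0 and 43.1 in heterozygous mice 37 and 40, and 22.6 and 47.4 in homozygous mice 47 and 49. Both heterozygous values were above both wildtype values, whereas the homozygous mice lay on either side of the wildtype pair. C1qb, for the B chain, had 27.9 and 29.8 FPKM in wildtype, 43.6 and 33.6 in heterozygous, and 18.2 and 38.3 in homozygous animals. C1qc, for the C chain, had 25.6 and 25.3 FPKM in wildtype, 38.7 and 32.4 in heterozygous, and 17.9 and 37.6 in homozygous animals. The 3 chains thus had the same order of mice from 47 at the bottom through the wildtype pair, 40 and 49 to 37 at the top, apart from the wildtype mice, which changed places for C1qc.

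The chains kept nearly fixed proportions within a mouse. The ratio of C1qa to C1qb FPKM lay between 1.15 and 1.28, that of C1qa to C1qc between 1.26 and 1.42 and that of C1qb to C1qc between 1.01 and 1.18. These ratios varied by at most 1.16-fold over the 6 mice, while the chains themselves varied by 2.16-fold to 2.44-fold. The adjoining genes share a library in each mouse, so their likeness is a description.

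Csf1r, on chromosome 18 (61100598 to 61132149), encodes the receptor for colony stimulating factor 1 and interleukin 34. Its FPKM was 6.82 and 7.79 in wildtype, 10.8 and 8.81 in heterozygous, and 4.18 and 12.2 in homozygous animals. Adgre1, whose product is a surface antigen used to identify mouse macrophages, had 2.31 and 2.42 FPKM in wildtype, 3.02 and 2.75 in heterozygous, and 1.63 and 4.42 in homozygous animals. For both genes the heterozygous pair was above the wildtype pair, and the homozygous mice held the lowest and the highest value of all 6.

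Mrc1 encodes the mannose receptor CD206. Its FPKM was 4.77 and 3.98 in wildtype, 6.36 and 4.83 in heterozygous, and 1.99 and 6.83 in homozygous animals, so that mouse 40 was barely above mouse 39. Cd163, the scavenger receptor for haemoglobin bound to haptoglobin, had 4.30 and 3.51 FPKM in wildtype, 6.44 and 5.54 in heterozygous, and 0.670 and 5.87 in homozygous animals. Mouse 47 was 5.25-fold below the next lowest mouse for Cd163, the largest such gap among the members, and 1.998-fold below it for Mrc1. Relative to C1qa, Cd163 FPKM was 0.0297 in mouse 47 and between 0.102 and 0.129 in the other 5 mice. The deficit of mouse 47 was thus larger in Cd163 than in the C1q chains.

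Lyz2 encodes lysozyme M, which neutrophils and some epithelia also make. Its FPKM was 57.1 and 50.3 in wildtype, 87.8 and 82.0 in heterozygous, and 29.2 and 101.4 in homozygous animals. The near-identical Lyz1 was between 1.12 (mouse 47) and 10.6 FPKM (mouse 49), and how reads shared by both genes were assigned is not given in the sources used here. Cd14, a coreceptor for endotoxin on chromosome 18 (36725067 to 36726798), had 7.73 and 8.69 FPKM in wildtype, 8.46 and 9.85 in heterozygous, and 6.35 and 8.23 in homozygous animals. Its wildtype values overlapped with those of both mutant genotypes, and mouse 47 was 1.22-fold below the next lowest mouse. Cx3cr1, the fractalkine receptor of monocytes, some macrophages and natural killer cells, had 1.49 and 2.16 FPKM in wildtype, 1.72 and 1.71 in heterozygous, and 2.07 and 2.50 in homozygous animals. It was the one member that was not lowest in mouse 47, and its heterozygous values lay within the wildtype range.

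**Figure D1:**
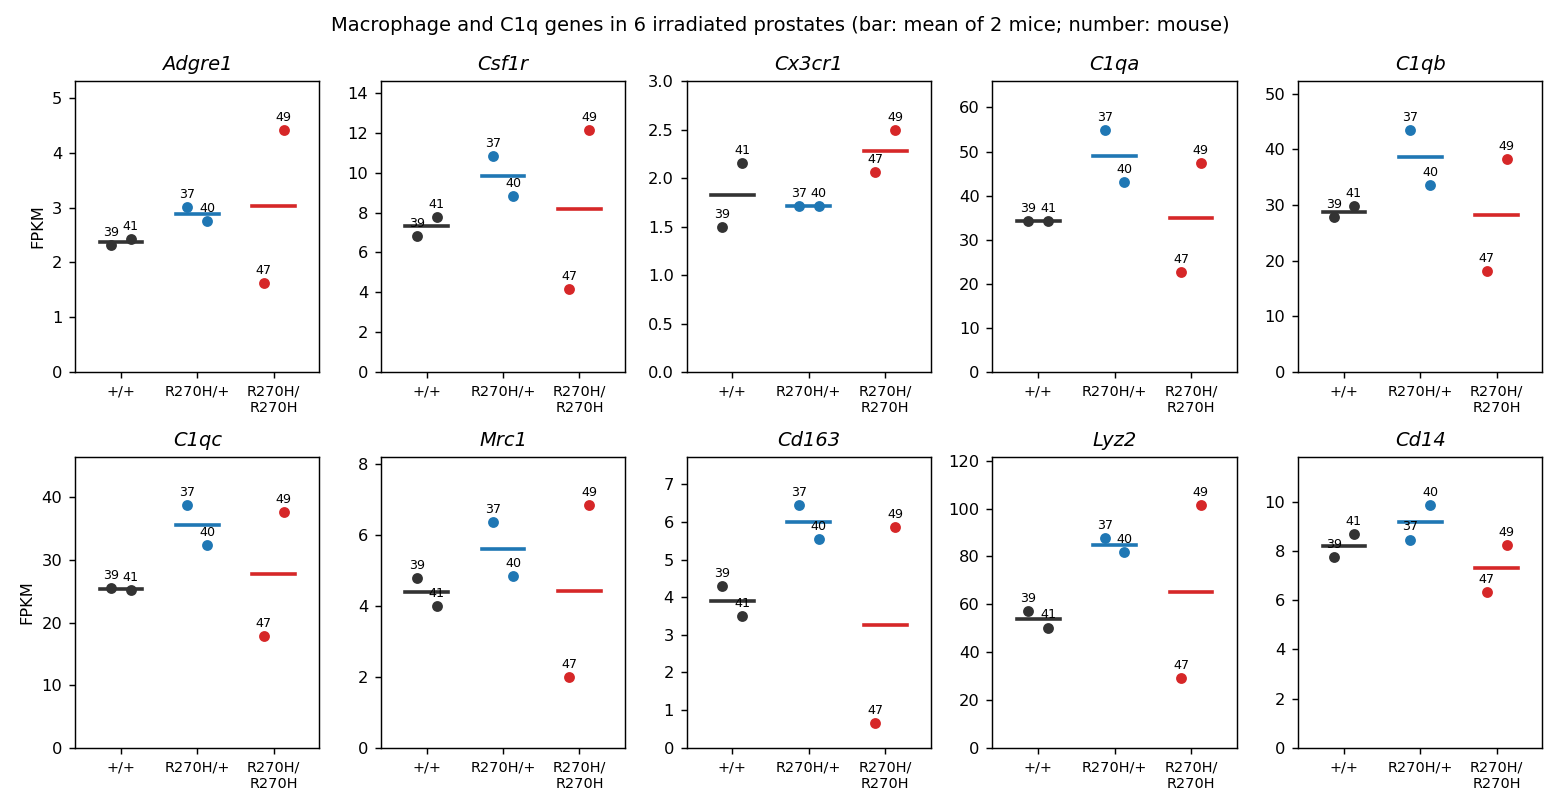
FPKM (y axis, from 0) of the 10 macrophage and C1q genes in wildtype (+/+), heterozygous (R270H/+) and homozygous (R270H/R270H) mice (x axis), with 1 point per mouse, labelled by its number, and a bar at the mean of the 2 mice. In 9 of the 10 panels mouse 47 is the lowest point, and in 8 both heterozygous points are above both wildtype points.

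Mouse 47 held the lowest of the 6 values in 9 of 10 members, against 25.5% of all genes tested. The highest value was in mouse 49 for 5 members (Adgre1, Csf1r, Mrc1, Lyz2 and Cx3cr1), in mouse 37 for 4 (the C1q chains and Cd163) and in mouse 40 for Cd14. Mouse 49 was above both wildtype mice in 9 members, all but Cd14. The share of all genes with mouse 49 above both wildtype mice was not computed. Whether the count of 9 is unusual thus cannot be said.

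The spread within a genotype differed sharply between genotypes. Mouse 49 was at least 2-fold above mouse 47 in 8 of 10 members, against 5.01% of all genes tested, counted in this direction only. The folds of these 8 were 2.10 for C1qa and C1qc, 2.11 for C1qb, 2.72 for Adgre1, 2.91 for Csf1r, 3.43 for Mrc1, 3.47 for Lyz2 and 8.76 for Cd163, and those of Cd14 and Cx3cr1 were 1.30 and 1.21. Counted in either direction, 0 members differed 2-fold between the wildtype mice (7.01% of all genes did) and 0 between the heterozygous mice (2.49% of all genes). These 2 shares follow a wider rule than the 5.01% and are not directly comparable with it. On the log2(FPKM + 0.1) scale, the members' median distance between the paired mice, regardless of sign, was 0.17 for the wildtype, 0.24 for the heterozygous and 1.23 for the homozygous pair, and over all genes tested it was 0.21, 0.19 and 0.22. These are values of 2 mice each and carry no test.

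**Figure D2:**
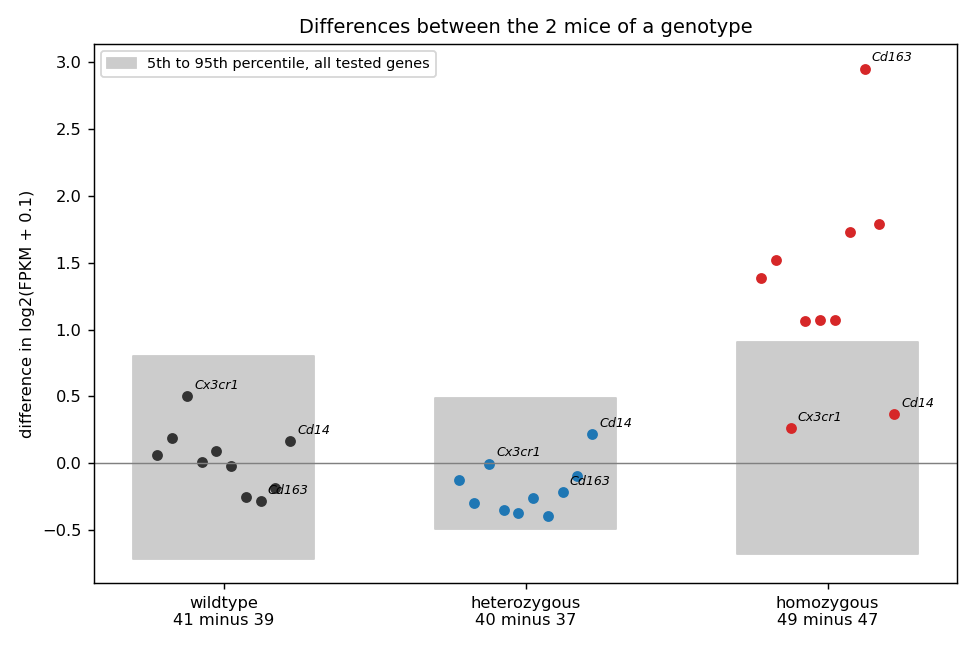
Difference in log2(FPKM + 0.1) between the 2 mice of each genotype (y axis), as the higher minus the lower mouse number. Points are the 10 members and grey boxes run from the 5th to the 95th percentile of all tested genes. All members lie inside the box in wildtype and heterozygous mice, and 8 of 10 lie above it in homozygous mice, where Cd163 reaches 2.95.

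**Figure D3:**
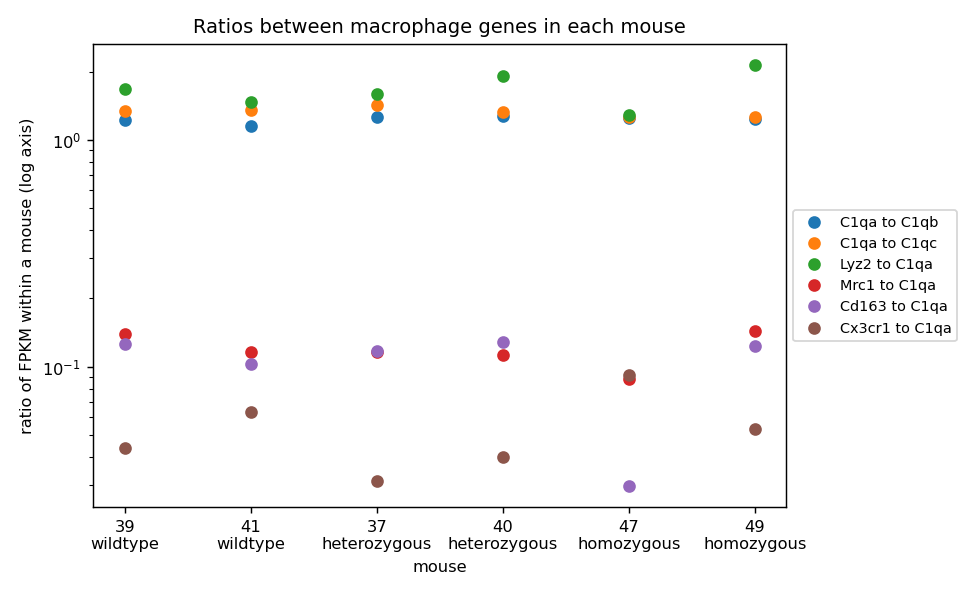
Ratios of FPKM between 2 genes within a mouse (y axis, log scale) for each of the 6 mice (x axis), with 1 colour per ratio. The C1q chain ratios stay level from mouse to mouse (C1qa to C1qb between 1.15 and 1.28), whereas Cd163 to C1qa drops to 0.0297 and Cx3cr1 to C1qa reaches 0.0915 in mouse 47.

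The first comparison asked whether macrophage genes differ between the 3 genotypes. In limma's moderated F-test with Benjamini-Hochberg adjustment over all tested genes, 0 of 10 members had an adjusted p under 0.05, against 0.101% of all genes. The adjusted p ran from 0.623 for Cd14 to 0.919 for Adgre1. At an unadjusted p under 0.05 the count was also 0 of 10, against 11.5% of all genes, and an F-test on each gene alone likewise gave 0 by either p.

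In heterozygous against wildtype mice, the mean log2 value was higher in 9 of 10 members and lower in Cx3cr1. Both heterozygous values exceeded both wildtype values in 8 of 10 members, all but Cd14 and Cx3cr1, against 19.2% of all genes tested. The ratio of mean FPKM was 1.58 for Lyz2, 1.53 for Cd163, 1.43 for C1qa, 1.40 for C1qc, 1.35 for Csf1r, 1.34 for C1qb, 1.28 for Mrc1 and 1.22 for Adgre1. The median log2 difference was 0.41 over the members and -0.01 over all genes tested. None passed the test, with 0 of 10 members at an adjusted p under 0.05 (0% of all genes) and 0 of 10 at an unadjusted p under 0.05 (6.87% of all genes). Lyz2 differed by 0.66 (standard error 0.54, adjusted p = 0.897) and C1qa by 0.50 (standard error 0.35, adjusted p = 0.871). The 95% confidence interval for C1qa ran from -0.35 to 1.36, so it held both no difference and one more than 2 times the estimate.

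Markers of some other cell types were also higher in heterozygous mice. The 4 endothelial genes had a median log2 difference of 0.47, and in 3 of 4 both heterozygous values were above both wildtype values (19.2% of all genes). An unadjusted p under 0.05 (6.87% of all genes) was reached by 2, Pecam1 (0.59) and Cdh5 (0.53). The 6 skeletal muscle genes had a median of 1.25, with all 6 above wildtype without overlap and at an unadjusted p under 0.05. Neither list had a gene that passed adjustment. Medians were 1.92 for seminal vesicle, 0.33 for adipocyte, 0.12 for smooth muscle and -0.12 for prostate epithelium genes, the last higher in 3 of 10. The part of these cell types in the members' difference was not tested.

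This fit takes its spread from all 6 mice, the homozygous pair among them. With mouse 47 left out, the heterozygous differences kept their values, and 4 of 10 members (Lyz2, C1qa, C1qc and Cd163) had an unadjusted p under 0.05, against 8.02% of all genes in that fit. The lowest adjusted p was then 0.373, for Lyz2. Leaving out mouse 49 in its place gave the same 4 members, against 8.06% of all genes, with a lowest adjusted p of 0.371.

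In homozygous against wildtype mice, the mean log2 value was higher in 4 members (Adgre1, C1qc, Lyz2 and Cx3cr1) and lower in 6. No member had both homozygous values above both wildtype values (21.3% of all genes did) or both below (28.7% of all genes did). The median log2 difference was -0.05 over the members and -0.04 over all genes. By the adjusted p, 0 of 10 members passed (0.384% of all genes), and by the unadjusted p also 0 of 10 (18.0% of all genes). Cd163 had the largest difference, -0.90 (standard error 0.89, adjusted p = 0.624, 95% confidence interval from -3.09 to 1.30). For C1qa it was -0.07 (standard error 0.35, adjusted p = 0.936), with an interval from -0.92 to 0.79.

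The sign of this comparison depended on the homozygous mouse used. Mouse 49 alone gave a median log2 difference from wildtype of 0.57 over the members and mouse 47 alone gave -0.63. With mouse 47 alone, Cd163 passed the test at -2.37 (adjusted p = 0.0481, over alternatives that otherwise gave 0.431 to 0.793), while the other 9 members did not, and 0.695% of all genes passed. With mouse 49 alone, 0 of 10 passed, against 0.0579% of all genes, and Lyz2 had the lowest adjusted p, 0.285, at a difference of 0.92. In these fits the lone mouse is assumed to vary like the other genotypes.

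In homozygous against heterozygous mice, the mean log2 value was lower in 9 of 10 members, all but Cx3cr1, with a median log2 difference of -0.49 against -0.03 over all genes. The count that passed was 0 of 10 by the adjusted p (0.0145% of all genes) and 0 of 10 by the unadjusted p (6.39% of all genes). Cd163 had -1.50 (standard error 0.89, adjusted p = 0.708), and C1qa had -0.57 (standard error 0.35, adjusted p = 0.709). With mouse 47 left out the median was 0.17 and 0 of 10 passed (0.0579% of all genes), and with mouse 49 left out it was -1.09, with Cd163 at -2.98 as the member that passed (adjusted p = 0.0483, against 0.289% of all genes that passed).

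**Figure D4:**
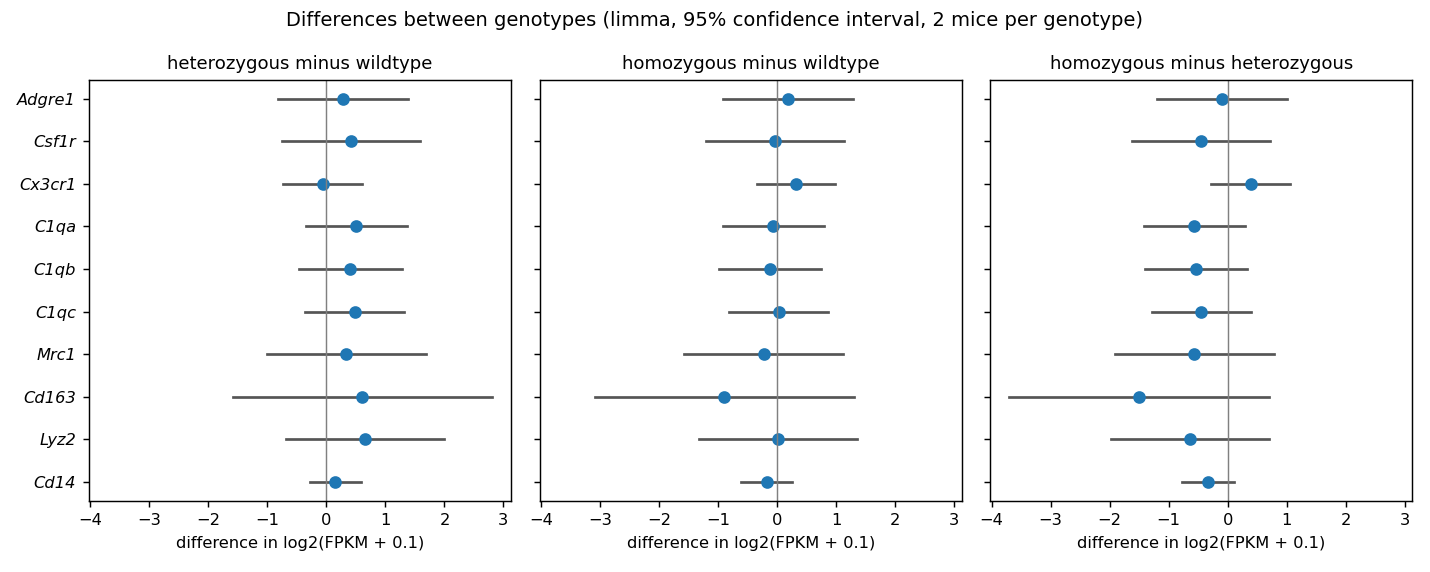
Differences in log2(FPKM + 0.1) between genotypes (x axis) for each member (rows) in limma's contrasts, with points at the estimate and lines for the 95% confidence interval, from 2 mice per genotype. Every interval includes 0, and those of Cd163 are the widest.

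Other genes of tissue macrophages were read from a list of 27, of which 23 were tested. In heterozygous mice the mean log2 value was above wildtype in 20 of 23, with a median log2 difference of 0.30, and in homozygous mice in 15 of 23, with a median of 0.18. None of the 23 passed adjustment in any contrast. At an unadjusted p under 0.05 against wildtype, there was 1 higher in heterozygous mice (Ctss). In homozygous mice 3 were higher (Ctss, Ms4a7 and Sirpa) and 1 was lower (Mertk). These shares of 23 are below the 6.87% and 18.0% of all genes in the same contrasts. The genes with the highest mean were Cbr2, Cd74, Lgmn and Tyrobp. Cd74, the invariant chain of antigen presentation, had 154 and 158 FPKM in wildtype, 233 and 207 in heterozygous, and 130.5 and 243 in homozygous animals. Tyrobp, a signalling adaptor of myeloid receptors, had 15.8 and 14.4, 25.9 and 19.2, and 13.8 and 24.6 FPKM in the same order. Legumain (Lgmn), a lysosomal protease, had 17.6 and 15.99, 21.9 and 19.4, and 17.3 and 21.9 FPKM. Cbr2, a carbonyl reductase that is not restricted to macrophages, was between 238 and 642 FPKM.

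Mouse 49 was at least 2-fold above mouse 47 in 7 of these 23 genes (5.01% of all genes), and mouse 47 was lowest of the 6 in 14 (25.5% of all genes). The 7, chosen here after their values were seen, were Cd68, Fcgr3, Spi1, Lyve1, Folr2, F13a1 and Pf4. In mouse 47, Lyve1, a hyaluronan receptor, was at 1.46 FPKM against 6.13 to 11.7 in the other 5 mice. Folr2, a folate receptor, was at 1.86 against 5.58 to 10.03 FPKM. F13a1, a coagulation factor subunit, was at 0.825 against 3.61 to 6.67, and platelet factor 4 (Pf4) at 3.38 against 10.5 to 16.5 FPKM. Fcgr3 was at 3.81 FPKM in mouse 47 against 8.70 to 10.4 in the others. These 4 genes, Fcgr3 and Cd163 were thus more than 2-fold below every other mouse in mouse 47. Spi1, for PU.1, was at 2.03 FPKM in mouse 47, 4.19 in mouse 49, 2.62 and 2.37 in wildtype, and 4.01 and 3.30 in heterozygous mice.

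By contrast, some myeloid genes were not low in mouse 47, again chosen after their values were seen. Aif1, for the actin binding protein IBA1, had its highest value there (5.60 FPKM, against 3.39 to 4.47), as had Sirpa, the receptor for CD47 (22.6 FPKM, against 11.03 to 17.6). Neutrophil markers were low but partly detected. S100a8, a calcium binding protein abundant in neutrophils, had 4.23 and 1.34 FPKM in wildtype, 1.08 and 0.886 in heterozygous, and 0.131 and 0.762 in homozygous animals, with a log2 difference of -2.48 between homozygous and wildtype mice that did not pass adjustment (adjusted p = 0.219). Its partner S100a9 was at 3.70 FPKM in mouse 39 and at or under 0.674 in the others, so both were above Adgre1 in mouse 39. Ly6g was listed at 0 in all mice except mouse 39 (0.192 FPKM) and Mpo in every mouse. The 11 monocyte and neutrophil genes, of which 4 were tested, had 0 calls in any contrast. They summed to 69.8 and 152 FPKM in wildtype, 141 and 92.2 in heterozygous, and 150.0 and 106 in homozygous animals, mostly from Plac8. Plac8 was at 147 FPKM in mouse 47 and between 56.4 and 146 in the others. Mouse 47 was nevertheless lowest in 3 of the 4 tested genes (25.5% of all genes). Mouse 49 was at least 2-fold above it in 3 (5.01% of all genes). Ly6c2 had 0.992 and 1.51 FPKM in wildtype, 2.06 and 1.87 in heterozygous, and 0.710 and 2.78 in homozygous animals.

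Another list held ligands, receptors and chemokines that sustain or attract macrophages. Of its 13 genes, 10 were tested and 0 passed in any contrast, with median log2 differences of 0.26 in heterozygous and 0.32 in homozygous mice. Beside the genes with the highest mean, Csf1, Il34 and Ccr2 are given for their roles, with their values known. Csf1, for colony stimulating factor 1, was between 5.52 (mouse 47) and 7.82 FPKM (mouse 39). Il34, for the other ligand of the same receptor, was between 2.57 and 7.79 FPKM. Cxcl12 had 33.9 and 43.5 FPKM in wildtype, 44.1 and 48.8 in heterozygous, and 53.2 and 53.4 in homozygous animals. Fractalkine (Cx3cl1), the ligand of Cx3cr1, was between 16.5 and 27.8 FPKM, Csf2ra, a chain of the GM-CSF receptor, between 13.3 and 16.01, and the chemokine Ccl5 between 5.56 and 11.01 FPKM. Ccr2, the receptor that monocytes use to enter tissue, had 2.15 and 1.48, 2.52 and 2.69, and 1.18 and 5.01 FPKM in wildtype, heterozygous and homozygous mice, with the same split between mice 47 and 49 as most members.

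C1q acts with the proteases C1r and C1s, which cleave C4 and C2 and so lead to C3. Of 33 complement genes outside C1q, 24 were tested and 0 passed in any contrast, with median log2 differences of 0.20 in heterozygous and -0.17 in homozygous mice against wildtype. Mouse 47 was lowest in 17 of the 24 (25.5% of all genes), and mouse 49 was at least 2-fold above it in 12 (5.01% of all genes). C3 itself, given for its role, had 16.2 and 21.2 FPKM in wildtype, 30.9 and 22.9 in heterozygous, and 7.45 and 34.1 in homozygous animals. Clusterin (Clu), a complement inhibitor made by epithelium, had 255 and 326, 468 and 498, and 594 and 501 FPKM. Its log2 difference from wildtype was 0.74 in heterozygous and 0.92 in homozygous mice, with unadjusted p under 0.05 in both, but it did not pass adjustment. C1rb, a second gene for C1r that unlike C1ra (4.08 to 8.86 FPKM) was high in this tissue, had 168 and 697, 392 and 162, and 8.92 and 135 FPKM. Adipsin (Cfd), which is made by fat cells, was between 144 and 304 FPKM, and the C1 inhibitor Serping1 between 46.4 (mouse 47) and 112 FPKM.

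Clearance of dying cells by macrophages uses the receptors Mertk and Axl with the bridging ligands Gas6 and Pros1. Of 20 genes of clearance, 17 were tested and 0 passed in any contrast. At an unadjusted p under 0.05, 6 were lower and 1 higher in homozygous than in wildtype mice, beside 18.0% of all genes in either direction, with a median log2 difference of -0.05. Calreticulin (Calr) had 743 and 808 FPKM in wildtype, 677 and 663 in heterozygous, and 359 and 475 in homozygous animals, and the genotypes did not overlap. Gas6 had 112 and 172, 134 and 103, and 49.6 and 83.0 FPKM. Rac1 had 203 and 208, 177 and 158, and 149 and 166 FPKM, and Mfge8 51.4 and 55.3, 70.3 and 57.5, and 57.2 and 57.0 FPKM. All 4 are made by many cell types. Mouse 49, in which most members were high, was below both wildtype mice for Calr, Gas6 and Rac1. Mertk, Axl and Pros1 are given for their roles, with their values known. Mertk had 17.5 and 22.1, 17.2 and 14.8, and 7.48 and 13.5 FPKM. Pros1 had 9.82 and 11.5, 8.16 and 8.90, and 5.16 and 8.40 FPKM. Axl had 21.5 and 21.3, 24.4 and 22.7, and 16.3 and 26.3 FPKM. Both homozygous values were below both wildtype values for Mertk and Pros1 (28.7% of all genes) but not for Axl.

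Activation genes of macrophages were mostly low. Of 21, only 8 reached a mean of 1 FPKM and 0 of these passed in any contrast, with a median log2 difference from wildtype of -0.05 for heterozygotes and -0.19 for homozygotes. Il6 was listed at 0 in all mice but mouse 37, and Nos2, Tnf and Il1b stayed under 1 FPKM in every mouse. The most abundant was Retnla, a gene induced by interleukin 4, with 76.9 and 51.0 FPKM in wildtype, 103 and 76.6 in heterozygous, and 11.4 and 128 in homozygous animals. Ptgs2, for cyclooxygenase 2, had 0.632 and 7.62, 10.7 and 11.2, and 49.4 and 23.2 FPKM, and both homozygous values were above all others. In 21.3% of all genes both homozygous values were above both wildtype values. In limma's homozygous against wildtype contrast its log2 difference was 3.84 and did not pass adjustment (adjusted p = 0.185). Its highest value was in mouse 47, in which 9 of 10 members were lowest. The cell type that made it was not tested. Myd88 (13.7 to 18.6 FPKM) and Ly96 (8.07 to 12.8 FPKM), of endotoxin signalling, varied little.

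The members' likeness to each other was read as Pearson's r over the 6 mice between the log2 values of a gene and the mean of the other 9. It was between 0.913 and 0.989 for 8 members, 0.748 for Cd14 and -0.0171 for Cx3cr1. Among tested genes outside the list, the 10 closest to the mean of the members were Clec4a1 (r = 0.993), Fcgr2b, Axl, Penk, Lrrn4cl, AI607873, Foxd2, C3, Emilin2 and Cmklr1 (r = 0.987). Fcgr2b, an inhibitory receptor for immunoglobulin G, had 4.36 and 4.66 FPKM in wildtype, 6.42 and 5.84 in heterozygous, and 2.83 and 7.32 in homozygous animals. The r values rest on 6 points with mouse 47 at one end, are the highest of many genes, and come without a test.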

How the data were processed

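Gene-level FPKM of 6 mouse prostates were used. The authors prepared stranded mRNA libraries, aligned read pairs to GRCm38 (mm10) with HISAT and deposited FPKM per gene from Cufflinks (Cuffnorm is also named in the submitters' processing notes). Versions, annotation and filters are not given in the sources used here. Without fragment counts no count test was run and the sampling error of 1 value is unknown. Of 47719 identifiers, 47219 were in GENCODE M21, used for positions. Where a symbol had several identifiers, the one with the highest mean was used.

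A linear model with 3 genotypes was fitted to log2(FPKM + 0.1) of the 13818 genes with a mean of at least 1 FPKM (limma 3.58.1, R 4.3.3, eBayes with trend), with Benjamini-Hochberg adjustment over these genes and a threshold of 0.05. The scale understates changes of low genes. The fit was tested on simulated data. An exact permutation test of 2 against 2 mice cannot go below 0.333 (two-sided) and was not used. The labels do not say that mice of a genotype were independent in litter or cage. The p-values therefore compare a difference between genotypes with the spread between these mice alone. In limma that spread is taken within genotypes and moderated over all tested genes.

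Named genes were the 10 members, the genes of each list that passed or else up to 4 with the highest mean, and the 10 genes most like the members' mean. Exceptions are marked as chosen after their values were seen. Members and lists were chosen with earlier results of these data known. Alternatives were another pseudocount (1 or 0.01), no filter, a mean of at least 5 FPKM, quantile normalization, median scaling, no trend, gene-wise F-tests on log2(FPKM), and leaving out each mouse. Python 3.11.15, pandas 2.3.3 and matplotlib 3.10.9 served for other steps.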

Additional observations from a re-analysis of the deposited data

How the results depend on the processing

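No member passed under any of the 8 alternatives that kept all mice, and the number of all genes that passed was then 0 to 17 (F-test, 14 as reported), 0 (heterozygous against wildtype, 0 as reported), 0 to 60 (homozygous against wildtype, 53) and 0 to 2 (homozygous against heterozygous, 2). Of these alternatives, only quantile normalization turned a direction, that of C1qa in homozygous against wildtype mice (0.0506), and it also moved the members' median there to 0.02. No paired analysis was possible because the mice of different genotypes share no numbers.

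With each mouse left out, between 0 and 1 members passed in homozygous against wildtype and in homozygous against heterozygous mice (Cd163, without mouse 49), and 0 in the other tests. The median log2 difference ran from -0.63 to 0.57 in homozygous against wildtype and from -1.09 to 0.17 in homozygous against heterozygous mice, at the ends set by leaving out mouse 49 or mouse 47. In homozygous against wildtype mice, the ranges that crossed 0 were -0.51 to 0.88 for Adgre1, -0.79 to 0.73 for Csf1r, -0.60 to 0.47 for C1qa, -0.66 to 0.41 for C1qb, -0.50 to 0.56 for C1qc, -1.09 to 0.64 for Mrc1, -2.37 to 0.58 for Cd163, -0.87 to 0.92 for Lyz2 and -0.36 to 0.00601 for Cd14. Against heterozygous mice they were -0.79 to 0.60 for Adgre1, -1.21 to 0.31 for Csf1r, -0.98 to 0.0875 for C1qc, -1.43 to 0.30 for Mrc1 and -1.54 to 0.26 for Lyz2. Over all genes, 96 passed in homozygous against wildtype mice without mouse 49 and 8 without mouse 47. Leaving out mouse 41 turned Csf1r and Lyz2 in homozygous mice (0.07 and -0.07) and Cx3cr1 in heterozygous mice (range -0.32 to 0.19). The other 9 members stayed higher in heterozygous than in wildtype mice whichever mouse was left out. Leaving out mouse 47 or 49 cannot change these differences. For the 8 members whose heterozygous and wildtype values did not overlap, no omission could turn the sign.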

Other observations

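Of 10 dendritic cell genes 6 were tested and 0 passed in any contrast, and in all 6 both heterozygous values were above both wildtype values, against 19.2% of all genes. Mouse 47 was lowest in 4 of the 6 (25.5% of all genes), and mouse 49 was at least 2-fold above it in 2 (5.01% of all genes). H2-Ab1 had 59.4 and 55.2 FPKM in wildtype, 89.7 and 81.5 in heterozygous, and 45.8 and 93.5 in homozygous animals. H2-Aa was at 63.7 FPKM in mouse 47 and 117 in mouse 49, and H2-Eb1 at 48.1 and 81.5 FPKM. Cd209a was between 0.668 and 2.35 FPKM.

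Of 14 genes of T, B and NK cells, 4 were tested and 0 passed. Immunoglobulin genes dominated, with Igkc at 228 and 371 FPKM in wildtype, 495 and 526 in heterozygous, and 83.5 and 272 in homozygous animals, and Ighm at 8.88 FPKM in mouse 47 against 88.7 to 156 in the others. Of 6 genes of all leukocytes 0 passed. Mouse 47 was lowest in 3 of the 6, against 25.5% of all genes. Ptprc, for CD45, and Cd53 are given with their values known. Ptprc had 1.24 and 1.22 FPKM in wildtype, 1.34 and 1.65 in heterozygous, and 1.178 and 2.61 in homozygous animals, so mouse 47 was level with the wildtype mice. Cd53 was at 2.06 FPKM in mouse 47 against 2.71 to 5.10 in the others, and Laptm5 at 6.98 against 13.5 to 17.9 FPKM. Lcp1 and Coro1a were not lowest in mouse 47. Lcp1 was at 40.8 FPKM there and between 35.7 and 41.5 FPKM in the others. Coro1a had 4.97 and 4.98 FPKM in wildtype, 8.76 and 7.28 in heterozygous, and 5.21 and 8.76 in homozygous animals. Cd52, which the epithelium of the male tract also makes, was at 2782 FPKM in mouse 47 and between 195 and 840 in the others. No gene passed adjustment in the lists for smooth muscle (5 genes), adipocytes (5), endothelium (4), skeletal muscle (6) or prostate epithelium (10). At an unadjusted p under 0.05 in homozygous against wildtype mice (18.0% of all genes), 6 of 6 skeletal muscle, 2 of 5 adipocyte and 2 of 4 endothelial genes were higher, and 1 of 10 epithelial genes was higher and 3 were lower. In the seminal vesicle list 1 gene passed adjustment, Svs2, which was lower in homozygous than in wildtype mice (limma, adjusted p = 0.0477). Svs2 was listed at 0 in both homozygous mice. In mouse 49, however, Svs4 was at 6819 FPKM and Svs5 at 23192 FPKM.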
